A study of Rattus norvegicus with 2 samples.

Results

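Voltage-gated sodium and calcium channels and the hyperpolarization-activated HCN channels were examined as a family, subunit by subunit, in 2 RNA-seq libraries of rat retina. Members were taken by name from the gene table of the study, as every gene whose symbol starts with Scn, a number and the letter a or b, with Cacna, Cacnb or Cacng, or with Hcn and a number. The rule gave 44 of 32662 genes, which fall into 7 subfamilies. These were 10 sodium channel alpha subunits, 4 sodium channel beta subunits, 10 calcium channel alpha1 subunits, 4 alpha2delta subunits, 4 calcium channel beta subunits, 8 gamma subunits and 4 HCN channels.

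Both libraries were made from retina of Long-Evans rats aged 2 months, after removal of ribosomal RNA. CTRL came from a retina that went through a sham procedure, and IR12 from an ischemic retina collected 12 hours after reperfusion. The study sequenced them to evaluate a software tool that finds circular RNAs whose level differs between conditions. With 1 library per condition no difference given here has a replicate check, and neither the labels nor the methods say whether the retinas came from separate animals, so differences between animals and effects of the procedure cannot be told apart.

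Sodium channel alpha subunits form the pore that carries the rising phase of the action potential, and beta subunits set its gating and its place in the membrane. Calcium channel alpha1 subunits form the pores through which calcium enters to trigger transmitter release, in photoreceptors and bipolar cells at ribbon synapses, while beta and alpha2delta subunits bring these pores to the membrane. HCN channels open when a cell hyperpolarizes, and in photoreceptors they shape the voltage response to light.

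Expression was read as FPKM, by its name the density of reads per kilobase of transcript scaled to the mapped reads of a library. Levels are thus per length and can be compared between genes. Whether the authors scaled the libraries further is not given. A difference is given as the log2 ratio of (FPKM + 1), IR12 over CTRL, which understates the change of low genes. Of the 44 members, 35 reached an FPKM of 1 in CTRL or IR12, and each of these 35 was at 1 or above in both. Among all genes, 13599 passed the same minimum. Their median log2 ratio was 0.02, and 48.2% of them were lower in IR12.

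As deposited, 32 of the 35 members were lower in IR12, and their median log2 ratio was -0.52. The summed level of all 44 members was 692 FPKM in CTRL and 527 FPKM in IR12, which is 76.3% of the level in CTRL. Over all genes the summed FPKM of IR12 was 63.8% of that of CTRL, so the members held a larger share of that sum in IR12. Over genes other than small non-coding RNAs the summed FPKM was higher in IR12, so the members held a smaller share of it there. In bulk tissue, fewer cells of a type and less RNA per cell cannot be told apart. The direction depends on how the libraries are scaled. Small non-coding RNAs made up 68.0% of the summed FPKM of CTRL and 46.4% of that of IR12. Bringing both libraries to the same sum (TPM scale) left 15 members lower and 20 higher, compared with 15.7% of all genes lower. This rescaling raised the median gene to 0.61 and the median member to 0.08. The distance between them hardly moved, since the median of the members minus that of all genes was -0.54 as deposited and -0.53 on the TPM scale. The same 32 members lay under the median gene on the deposited scale, with a pseudocount of 0.1, after centring on the median gene and on both rescaled versions. The other 3 members, Cacna2d1, Cacng7 and Cacnb1, lay above it on every one of these scales. For centring and rescaling this agreement follows nearly from construction, since a common factor moves all genes almost alike, and it is no test of the members. Differences are read against the median gene because the distance of a member from it depends little on the scale, and the percentile of a member is the rank of its log2 ratio among the 13599 genes.

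Of the 35 members, 22 were among the lowest 25% of log2 ratios, a share fixed by construction over all genes, and the median percentile of the members was 16.02. The shift was made of many moderate differences. On the deposited scale 13 members (37.1%) were at least 1.5-fold lower in IR12, compared with 13.7% of all genes. At least 2-fold lower were 2 members, Cacng4 and Cacng2, a share of 5.71% that is close to the 6.12% of all genes. No member was at least 1.5-fold higher (14.8% of all genes) or at least 2-fold higher (6.56% of all genes) as deposited. On the TPM scale 2 members, Cacng4 and Cacng2, were at least 1.5-fold lower and 3, Cacnb1, Cacna2d1 and Cacng7, at least 1.5-fold higher. The median gene, at 0.61, was itself over 1.5-fold higher on that scale, so most of all genes were too. Lower by any amount were 15.7% of all genes.

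**Figure D1:**
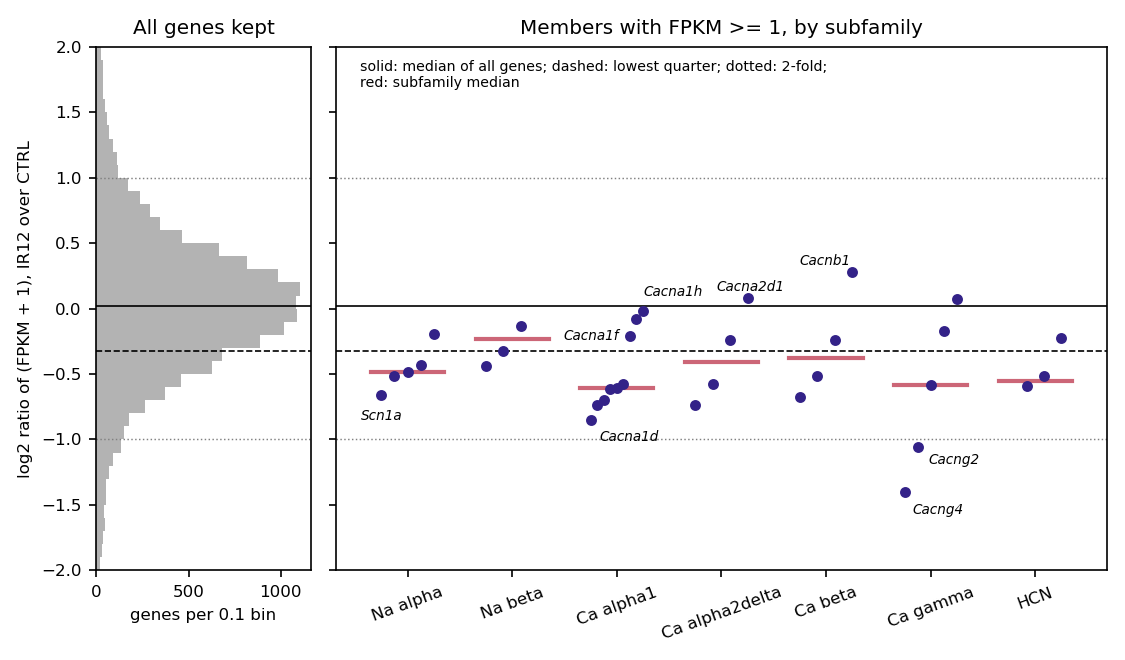
Log2 ratio of (FPKM + 1), IR12 over CTRL, for all 13599 genes that reached FPKM 1 in CTRL or IR12 (left, number of genes per bin) and for the members described in the text (right, 1 point per gene, red bars are medians over every subfamily member that passed this minimum). As deposited, all drawn members but Cacna2d1, Cacng7 and Cacnb1 lie under the median gene, and Cacng4 and Cacng2 are the points at least 2-fold lower, while on the TPM scale no member is.

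The levels gave an order within each subfamily. In CTRL, Cacna2d4 and Cacna1f had the highest FPKM of all members. Both genes are known from photoreceptors, the most numerous neurons of the retina. At the other end, 9 members were under an FPKM of 1 in both libraries, among them Scn9a, Scn4a, Scn11a, Scn10a, Cacna1s, Cacng8, Cacng1 and Cacng6. Most of them are known from muscle or peripheral sensory neurons.

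**Figure D2:**
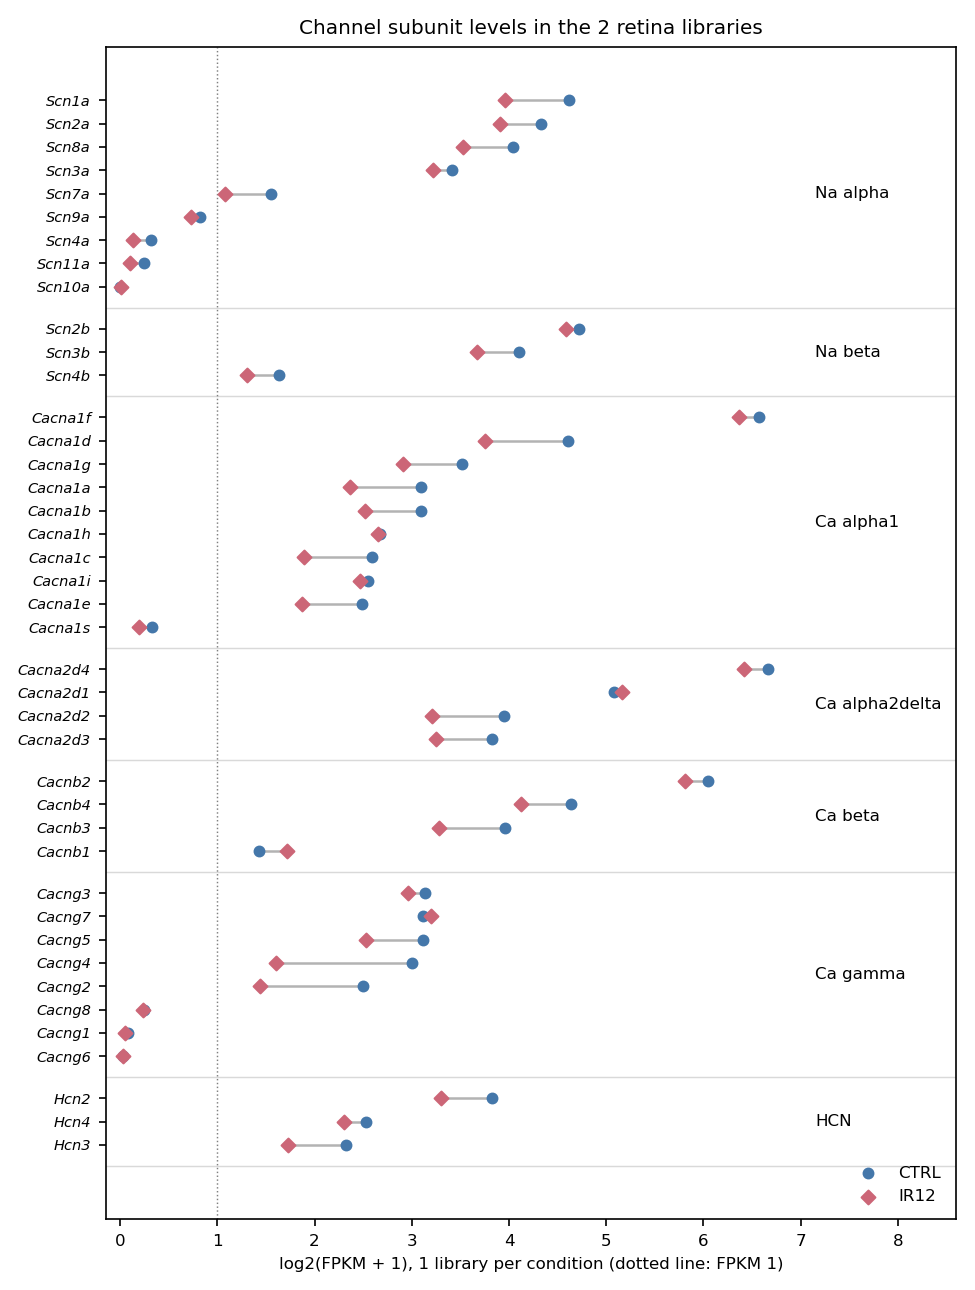
Level of each member described in the text as log2(FPKM + 1) in CTRL (circles) and IR12 (diamonds), with 1 library per condition, ordered by level in CTRL within each subfamily. As deposited, the diamond lies left of the circle for all drawn members at or above FPKM 1 (dotted line) but Cacna2d1, Cacng7 and Cacnb1, and on the TPM scale others too are higher in IR12, such as Cacna1f and Scn2b.

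Among sodium channel alpha subunits, 5 of 10 passed the minimum, and all 5 were under the median gene, with a median log2 ratio of -0.48 as deposited and 0.08 on the TPM scale. The subfamily summed to 71.6 FPKM in CTRL and 49.6 FPKM in IR12. Scn1a, which encodes Nav1.1, had the highest level, 23.5 FPKM in CTRL and 14.5 FPKM in IR12. Its log2 ratio of -0.66, at percentile 11.4, was the lowest of the subfamily as deposited with a pseudocount of 1, while with a pseudocount of 0.1 and on the TPM scale that of Scn7a was lower. Scn2a, which encodes Nav1.2, had 19.2 FPKM in CTRL and 13.96 FPKM in IR12, a log2 ratio of -0.43. For Scn8a, which encodes Nav1.6, the channel of mature nodes of Ranvier and of the axon initial segment, the level was 15.5 FPKM in CTRL and 10.5 FPKM in IR12, a log2 ratio of -0.52. The pores that carry most action potentials in the adult central nervous system were thus all among the lowest 25% of genes. Scn3a, known for its high level in the developing brain, was the exception with 9.66 FPKM in CTRL and 8.32 FPKM in IR12, at percentile 33.0. Its interval for counting error on a transcript of 1 kb, described below, overlapped those of Scn1a, Scn2a and Scn8a. Within each library, which needs no scaling, the level of Scn3a was 0.411 times that of Scn1a in CTRL and 0.573 times in IR12. The share of Scn1a in the summed level of the subfamily went from 32.8% to 29.2%, while that of Scn3a went from 13.5% to 16.8%. On the TPM scale Scn1a and Scn7a were lower in IR12, and Scn2a, Scn3a and Scn8a were higher.

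Scn7a encodes Nax, a sodium-sensing channel of glia and some neurons that is not opened by voltage, so the name rule takes in a gene that is no voltage-gated channel in the strict sense. Its level was 1.94 FPKM in CTRL and 1.11 FPKM in IR12, a log2 ratio of -0.48. Scn4a of skeletal muscle had 0.25 FPKM in CTRL and 0.0956 FPKM in IR12. Of the genes known from peripheral sensory neurons, Scn9a had 0.770 FPKM in CTRL and 0.660 FPKM in IR12, and Scn11a had 0.183 FPKM and 0.0737 FPKM. Scn10a was listed at 0 in CTRL and at 0.00603 FPKM in IR12. None of the sensory neuron and muscle genes reached the level at which a difference was read.

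The genes of 5 alpha subunits lie side by side on chromosome 3 of rn6, where Scn1a spans 52381975 to 52510507, Scn9a spans 52583951 to 52664209 and Scn7a spans 52777214 to 52849907. Scn2a and Scn3a share 1 listed locus there, 51508573 to 52120290, although each has its own FPKM. Their log2 ratios were -0.43 and -0.19, with intervals for counting error that overlapped (-0.68 to -0.23 and -0.52 to 0.09). Their levels differed, and part of these values could come from shared reads. Scn10a (128298594 to 128416650) and Scn11a (128450801 to 128521109) are neighbours on chromosome 8, and both were under an FPKM of 1. Neighbours on chromosome 3 thus ranged from 23.5 FPKM for Scn1a to 0.770 FPKM for Scn9a in the same library.

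All 4 sodium channel beta subunits passed the minimum. As deposited and with this minimum their median log2 ratio of -0.23 was nearest to the median gene of the 7 subfamilies, and on the TPM scale it was 0.32, with all 4 higher in IR12. Scn2b, whose protein is joined to the pore by a disulfide bond, had 25.3 FPKM in CTRL and 22.9 FPKM in IR12, a log2 ratio of -0.13. It was nearer to the median gene than any alpha subunit. Scn3b had 16.2 FPKM in CTRL and 11.7 FPKM in IR12, a log2 ratio of -0.44, and so moved as the alpha subunits did. Scn4b, the lowest of the subfamily, had 2.11 FPKM in CTRL and 1.48 FPKM in IR12. The level of Scn2b was 1.56 times that of Scn3b in CTRL and 1.96 times in IR12.

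Calcium channel alpha1 subunits had the lowest median of the subfamilies, close to that of the gamma subunits, with 9 of 10 past the minimum, all 9 under the median gene, and a median log2 ratio of -0.61 as deposited and -0.03 on the TPM scale. Their summed level was 163 FPKM in CTRL and 125 FPKM in IR12. The subfamily held very unequal differences. Cacna1f, which encodes Cav1.4, the L-type channel of photoreceptor ribbon synapses, had 94.1 FPKM in CTRL and 81.4 FPKM in IR12. Its log2 ratio of -0.21 lay at percentile 32.3. Cacna1d, which encodes Cav1.3, the L-type channel shared by many retinal neurons, had 23.4 FPKM in CTRL and 12.5 FPKM in IR12, and its log2 ratio of -0.85 lay at percentile 7.75. The level of Cacna1d was thus 0.249 times that of Cacna1f in CTRL and 0.154 times in IR12, and the share of Cacna1f in the summed level of the subfamily went from 57.7% to 65.3%.

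The remaining pores fell into 2 kinds. Cacna1a, the P/Q-type pore of fast synapses, had 7.57 FPKM in CTRL and 4.14 FPKM in IR12, a log2 ratio of -0.74. Cacna1c, the L-type pore known from heart and smooth muscle, had 5.04 FPKM in CTRL and 2.71 FPKM in IR12, a log2 ratio of -0.70. These were followed by Cacna1e, the R-type pore, with -0.62, by Cacna1g, a T-type pore, with -0.61, and by Cacna1b, the N-type pore, with -0.58. In CTRL their levels were 4.61 FPKM for Cacna1e, 10.5 FPKM for Cacna1g and 7.56 FPKM for Cacna1b. In IR12 they were 2.66 FPKM, 6.52 FPKM and 4.74 FPKM, in the same order. With Cacna1d, these 6 pores were among the lowest 25% of genes, and all 6 were also lower in IR12 on the TPM scale, by small amounts for Cacna1b (-0.02) and Cacna1g (-0.03). The T-type pores Cacna1h and Cacna1i were near the median gene. Cacna1h had 5.36 FPKM in CTRL and 5.29 FPKM in IR12, a log2 ratio of -0.02, and Cacna1i had 4.84 FPKM and 4.51 FPKM, a log2 ratio of -0.08. Both were higher on the TPM scale, as was Cacna1f. The interval of Cacna1g for counting error on a transcript of 1 kb, described below, was -0.995 to -0.358. It overlapped those of Cacna1h (-0.431 to 0.382) and Cacna1i (-0.535 to 0.331). Cacna1s, the pore of skeletal muscle, had 0.255 FPKM in CTRL and 0.142 FPKM in IR12.

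The promoters of Cacna1f and Cacna1d are shown because these L-type genes had the most unequal log2 ratios of their kind, Cacna1d being chosen after its values were seen. Each run is the 250 bases before the transcription start that RefSeq lists on GRCr8, on the minus strand, at chrX:17568309-17568558 for Cacna1f and chr16:5527550-5527799 for Cacna1d. This build differs from the rn6 loci of the expression table. No capitals are used because none of the motifs searched was found.
Cacna1f: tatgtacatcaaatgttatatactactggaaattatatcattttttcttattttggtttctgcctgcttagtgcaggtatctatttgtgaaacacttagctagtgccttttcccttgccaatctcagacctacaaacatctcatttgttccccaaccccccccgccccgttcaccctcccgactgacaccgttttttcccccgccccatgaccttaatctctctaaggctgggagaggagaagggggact
Cacna1d: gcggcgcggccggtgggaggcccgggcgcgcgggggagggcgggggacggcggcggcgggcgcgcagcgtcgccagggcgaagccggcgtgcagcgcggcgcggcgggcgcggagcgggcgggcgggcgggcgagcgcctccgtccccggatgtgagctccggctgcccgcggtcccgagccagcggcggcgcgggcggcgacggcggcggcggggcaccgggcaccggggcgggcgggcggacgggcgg
The run of Cacna1f had a GC content of 45.6% with 5 CpG, and that of Cacna1d had 88.8% with 56 CpG. Over windows that add the 50 bases after the start, the median of the members was 63.0% GC and 16 CpG (31 windows of 28 members), compared with 51.7% and 7 CpG over 33469 windows of all genes. GC content is set beside the differences as a description, and its part in them was not tested. Across the 21 members with a window and an FPKM of at least 1, which are genes and not replicates, the Spearman rank correlation between GC content and log2 ratio was -0.24. The median log2 ratio was -0.55 for the 12 with at least 60% GC and -0.48 for the 9 with less.

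Among the 4 alpha2delta subunits, which raise the number of channels at the membrane, the median log2 ratio was -0.41 as deposited and 0.21 on the TPM scale. Their summed level was 161 FPKM in CTRL and 136 FPKM in IR12, the highest relative level of any subfamily (84.7% of CTRL). Cacna2d4, the partner of Cav1.4 in photoreceptors, had 100.3 FPKM in CTRL and 84.6 FPKM in IR12, the highest level of all members in both libraries, and a log2 ratio of -0.24. Cacna2d1, a target of gabapentin, was 1 of the 3 members above the median gene, with 32.9 FPKM in CTRL and 34.8 FPKM in IR12, a log2 ratio of 0.08 as deposited and -0.02 without small RNAs. Cacna2d2, the other gabapentin target, had 14.4 FPKM in CTRL and 8.25 FPKM in IR12, a log2 ratio of -0.74 at percentile 9.66. Cacna2d3 had 13.2 FPKM in CTRL and 8.48 FPKM in IR12, a log2 ratio of -0.58. On the TPM scale Cacna2d2 was lower in IR12 and the other members of the subfamily were higher. The level of Cacna2d1 was 0.328 times that of Cacna2d4 in CTRL and 0.412 times in IR12, and its share of the subfamily went from 20.5% to 25.6%.

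The promoter of Cacna2d1 is shown as that of the member with the highest log2 ratio, as deposited and with a pseudocount of 1, among those with an FPKM of at least 5, while with a pseudocount of 0.1 Cacng7 was slightly higher. RefSeq lists 3 starts for it on GRCr8, and the run is the 250 bases before the one listed first, at chr4:20330148-20330397 on the minus strand, with no motif match and so no capitals.
Cacna2d1: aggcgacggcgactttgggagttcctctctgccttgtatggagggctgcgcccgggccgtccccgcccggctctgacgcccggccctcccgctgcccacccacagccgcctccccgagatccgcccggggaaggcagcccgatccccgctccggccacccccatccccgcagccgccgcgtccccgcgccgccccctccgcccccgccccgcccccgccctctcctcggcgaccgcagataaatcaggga
Its GC content was 77.2% with 32 CpG. The log2 ratio was 0.08 for Cacna2d1 and -0.85 for Cacna1d, whose promoter is also of high GC content. The part of GC content in these differences was not tested.

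Calcium channel beta subunits, which bind the pore inside the cell, had a median log2 ratio of -0.38 as deposited and 0.25 on the TPM scale, with 3 of 4 under the median gene. Their summed level was 105 FPKM in CTRL and 82.4 FPKM in IR12. Cacnb2, which pairs with Cav1.4 at photoreceptor synapses, had 65.3 FPKM in CTRL and 55.0 FPKM in IR12, a log2 ratio of -0.24. Cacnb4 had 23.9 FPKM in CTRL and 16.4 FPKM in IR12, a log2 ratio of -0.52. For Cacnb3 the level was 14.5 FPKM in CTRL and 8.72 FPKM in IR12, a log2 ratio of -0.68. Relative to Cacnb2, the level of Cacnb3 went from 0.223 to 0.158 and that of Cacnb4 from 0.367 to 0.299, so the subfamily shifted towards Cacnb2, whose share went from 61.9% to 66.7%. Cacnb1, the beta subunit of skeletal muscle that neurons also express, was the member with the highest log2 ratio, 0.28, but at a low level of 1.70 FPKM in CTRL and 2.28 FPKM in IR12. On the TPM scale Cacnb3 was lower in IR12 and Cacnb1, Cacnb2 and Cacnb4 were higher.

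Cacna1f, Cacnb2 and Cacna2d4 form the calcium channel of photoreceptor ribbon synapses, and their differences were close to each other, with log2 ratios of -0.21, -0.24 and -0.24. Within each library the level of Cacnb2 was 0.694 times that of Cacna1f in CTRL and 0.676 times in IR12, and that of Cacna2d4 was 1.07 times in CTRL and 1.04 times in IR12. The ratios between the subunits of this complex thus changed little, whatever the scaling. Their summed level was 259.6 FPKM in CTRL and 221 FPKM in IR12, which is 85.1% of CTRL. The other 14 alpha1, alpha2delta and beta members past the minimum had a median log2 ratio of -0.59, and with the member under it they summed to 169.8 FPKM in CTRL and 122 FPKM in IR12, which is 72.0% of CTRL. All 3 photoreceptor subunits were higher in IR12 on the TPM scale, with 0.43 for Cacna1f and 0.40 for both partners, under the median gene at 0.61. Cacna2d4 and Cacnb2 share their listed locus with another gene at or above FPKM 1, Lrtm2 (up to 6.97 FPKM) and a U2 gene (up to 25.1 FPKM), so part of their values could come from shared reads.

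**Figure D3:**
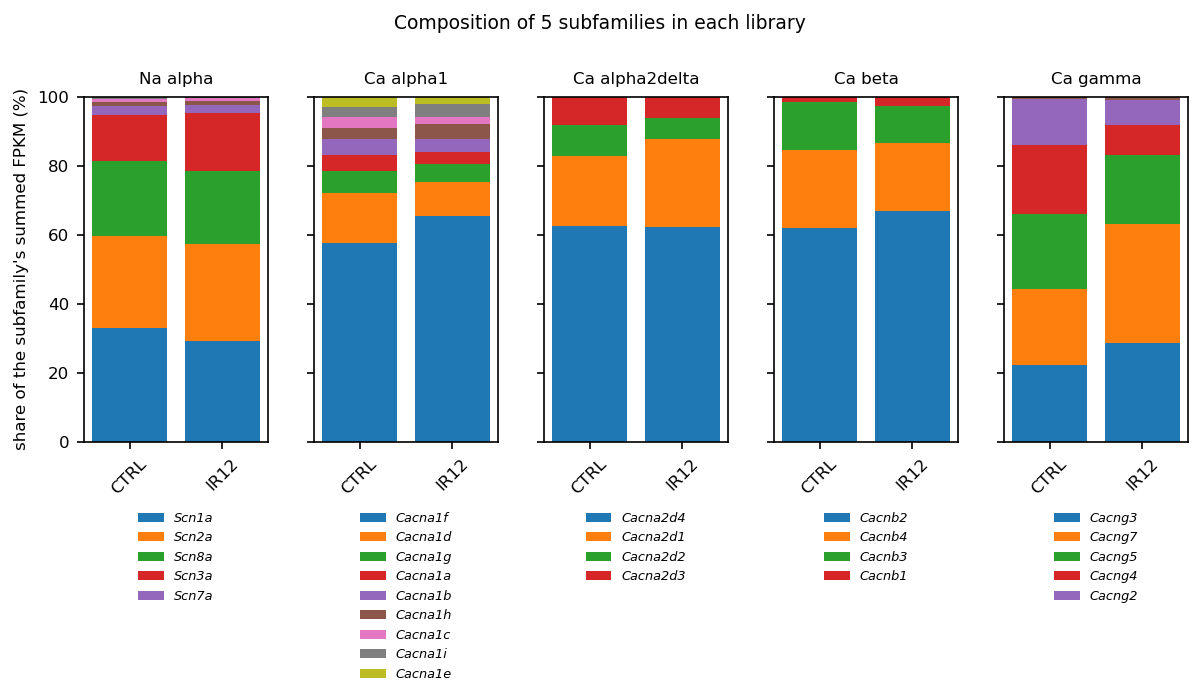
Share of each member in the summed FPKM of 5 subfamilies, in percent, in CTRL and IR12, a quantity that does not depend on the scaling of a library (members under 2% in both libraries are drawn without a name). Cacna1f goes from 57.7% to 65.3% of the alpha1 subunits and Cacng4 from 20.01% to 8.58% of the gamma subunits, while Cacna2d4 stays near its share of the alpha2delta subunits with 62.4% and 62.1%.

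Gamma subunits share their name with the calcium channel of skeletal muscle, but Cacng2, Cacng3, Cacng4 and Cacng8 encode transmembrane AMPA receptor regulatory proteins, which carry glutamate receptors to the synapse, and Cacng5 and Cacng7 encode related proteins. Of the 8 members, 5 passed the minimum, with a median log2 ratio of -0.59 as deposited and -0.03 on the TPM scale. The widest differences of the whole family were found here. Cacng4 had 7.01 FPKM in CTRL and 2.03 FPKM in IR12, a log2 ratio of -1.40 at percentile 3.6. Cacng2, which encodes stargazin, had 4.67 FPKM in CTRL and 1.72 FPKM in IR12, a log2 ratio of -1.06 at percentile 5.48. Both were lower on every scale, although on the TPM scale, with -0.94 and -0.62, neither reached 2-fold with a pseudocount of 1. For Cacng4 this depends on the pseudocount, since without one its log2 ratio of -1.79 stays at least 2-fold lower after adding the 0.65 of the TPM scale. Cacng5 had 7.64 FPKM in CTRL and 4.75 FPKM in IR12, a log2 ratio of -0.59. Cacng3 and Cacng7, in contrast, were close to the median gene. Cacng3 had 7.77 FPKM in CTRL and 6.79 FPKM in IR12, a log2 ratio of -0.17. The level of Cacng7 was 7.69 FPKM in CTRL and 8.15 FPKM in IR12, a log2 ratio of 0.07 as deposited and -0.01 without small RNAs, and on the TPM scale both genes were higher in IR12. In CTRL these 4 genes, Cacng3, Cacng7, Cacng5 and Cacng4, had nearly the same level, and in IR12 they did not.

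Ratios within a library show the same without scaling. The level of Cacng4 was 0.911 times that of Cacng7 in CTRL and 0.249 times in IR12. That of Cacng2 was 0.601 times the level of Cacng3 in CTRL and 0.253 times in IR12. The share of Cacng7 in the summed level of the subfamily went from 21.95% to 34.4%, and that of Cacng4 from 20.01% to 8.58%. Cacng8 had 0.183 FPKM in CTRL and 0.179 FPKM in IR12, Cacng1 had 0.0590 FPKM and 0.0346 FPKM, and Cacng6 had 0.0173 FPKM and 0.0203 FPKM. Most of the members lie in clusters, with Cacng1, Cacng4 and Cacng5 on chromosome 10 of rn6 (95921174 to 95934345, 95951234 to 96015499 and 96123397 to 96131880) and Cacng6, Cacng8 and Cacng7 on chromosome 1 (64305438 to 64321241, 64330106 to 64350338 and 64374603 to 64405149). Outside these clusters lie Cacng3, elsewhere on chromosome 1 (192613372 to 192709078), and Cacng2 on chromosome 7 (119228102 to 119352605). Neighbouring genes differed in level, as Cacng4 and Cacng1 did, and Cacng7 and Cacng6.

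The promoter of Cacng2 is shown because it belongs to 1 of the 2 members at least 2-fold lower as deposited, and it was chosen after its values were seen. The run is the 250 bases before the RefSeq start on GRCr8, at chr7:111577758-111578007 on the minus strand. Capitals mark TTTATA, the reverse complement of TATAAA, the letters of the TATA box.
Cacng2: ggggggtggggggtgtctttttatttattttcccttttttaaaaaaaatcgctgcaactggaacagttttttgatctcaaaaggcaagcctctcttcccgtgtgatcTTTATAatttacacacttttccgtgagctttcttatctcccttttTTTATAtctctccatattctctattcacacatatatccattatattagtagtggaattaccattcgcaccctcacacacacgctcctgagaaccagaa
The marked letters start 143 and 98 bases before the transcription start. TATAAA, read on both strands, was found in 14.2% of the 33469 windows and, among the members, in those of Cacng2 and Cacna1s. Its GC content of 38.4% was the lowest of the 31 member runs. The left part of the RE1 element bound by the neuronal repressor REST, TCAGCACC, was found in 1.48% of windows and, among the members, only in that of Cacng3, where it occurs 205 and 133 bases before the start. The cAMP response element TGACGTCA (1.83% of windows) and the E-box CACGTG (6.42%) were found in 0 of the 31 member windows. A match is a description of these letters only.

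All 4 HCN channels were under the median gene, with a median log2 ratio of -0.56 as deposited and 0.03 on the TPM scale. Hcn2 had 13.1 FPKM in CTRL and 8.87 FPKM in IR12, a log2 ratio of -0.52. Hcn3 had 3.99 FPKM in CTRL and 2.31 FPKM in IR12, a log2 ratio of -0.59. Hcn4, the pacemaker channel of the sinoatrial node, had 4.76 FPKM in CTRL and 3.92 FPKM in IR12, a log2 ratio of -0.23, and so lay nearer to the median gene than Hcn2 and Hcn3. On the TPM scale Hcn3 was lower in IR12 and Hcn2 and Hcn4 were higher. On rn6, Hcn3 is listed on chromosome 2 (188449210 to 188471988), Hcn2 on chromosome 7 (12851739 to 12874215) and Hcn4 on chromosome 8 (63600663 to 63639654).

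Precision was judged from the size of single reads. At the lowest values FPKM moved in steps of 1 read, and over olfactory receptor genes with loci under 1100 bases 1 read on 1 kb of transcript gave 0.0649 FPKM in CTRL and 0.0380 FPKM in IR12. An FPKM of 1 thus stands for 15.4 reads per kb in CTRL and 26.3 in IR12, a ratio of 1.71. Intervals at 95% (Clopper-Pearson, for a transcript of 1 kb, without pseudocount) cover counting error only and say nothing about animals. For Cacng4, with 108 reads per kb in CTRL and 53.5 in IR12, the log2 ratio of FPKM was -1.79 with an interval of -2.30 to -1.31. For Cacng2 it was -1.44 with an interval of -2.02 to -0.89. The interval of Cacna1d was -1.12 to -0.68 and that of Cacna1f -0.31 to -0.11, so these L-type genes differed from each other by more than counting error. The intervals of 11 of the 35 members included 0 as deposited, at this set length of 1 kb. Transcript lengths were not used, and a longer transcript holds more reads at the same FPKM. Its interval is narrower, so how many intervals include 0 or overlap depends on the set length. Which intervals include 0 depends on the scale, and after adding the factor of the TPM scale 20 did, with 2 of the 11 among them. The 11 take in 8 members that were lower as deposited, such as Scn2b (-0.32 to 0.05), Scn3a (-0.52 to 0.09) and Hcn4 (-0.72 to 0.18), and all 3 that were higher, Cacna2d1 (-0.08 to 0.24), Cacng7 (-0.24 to 0.43) and Cacnb1 (-0.25 to 1.16). Of the lowest members, Cacng1 stood on 0.909 reads per kb in both libraries, so its unequal FPKM values rest on the same number of reads per kb.

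**Figure D4:**
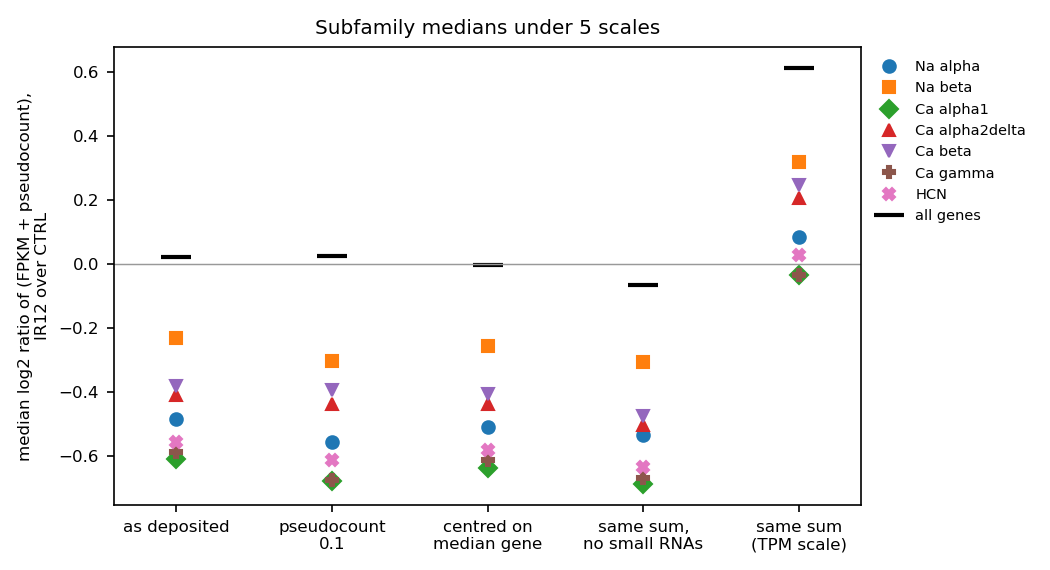
Median log2 ratio of each subfamily, IR12 over CTRL, on the deposited scale, with a pseudocount of 0.1, after centring on the median gene, and with both libraries brought to the same sum without and with small non-coding RNAs. Black dashes are the median of all genes, which lies at 0.02 as deposited and 0.61 on the TPM scale; every subfamily median lies under it on all of them, while 5 of the 7 subfamily medians are above 0 on the TPM scale.

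Genes that anchor, carry or regulate these channels were set beside them as a list of 31, of which 28 passed the minimum. As deposited, 23 of the 28 were lower in IR12 and their median log2 ratio was -0.32, and 1 was at least 2-fold lower. This was Stac, which binds L-type channels, with 3.38 FPKM in CTRL and 0.506 FPKM in IR12. The fibroblast growth factor homologous factors, which bind the tail of sodium channels, included Fgf11 with 22.1 FPKM in CTRL and 11.2 FPKM in IR12, and Fgf14 with 18.5 FPKM and 10.3 FPKM. Pex5l, which carries HCN channels to the membrane, had 13.1 FPKM in CTRL and 7.53 FPKM in IR12, a log2 ratio of -0.73. Ank3, the ankyrin that holds sodium channels at the axon initial segment, had 48.8 FPKM in CTRL and 34.4 FPKM in IR12. Other partners differed less, such as Fgf12 and Fgf13 with log2 ratios of -0.46 and -0.43, and Ank2, Cntn1, Erc2 and Nfasc, whose log2 ratios lay between -0.16 and -0.01. Cabp4, the calcium sensor of Cav1.4, had 235 FPKM in CTRL and 207 FPKM in IR12, and its log2 ratio of -0.19 was close to the -0.21 of Cacna1f. Rims1, Bsn, Rimbp2 and Rims2 on the same list lay lower, with -0.79, -0.61, -0.59 and -0.42, while Erc2 lay higher with -0.06. Of the 28 partners, 14 were among the lowest 25% of genes. Gem and Rem2, small GTPases that inhibit calcium channels, had the highest log2 ratios of the list, with 21.7 FPKM in CTRL and 31.8 FPKM in IR12 for Gem and 0.888 FPKM and 1.82 FPKM for Rem2.

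Potassium channel genes, taken by symbols that start with Kcn, were set beside the members as another channel group. Of 94 such genes 60 passed the minimum, and as deposited 50 of these were lower in IR12 and their median log2 ratio was -0.45. Among the lowest 25% of genes were 37 of 60, compared with 22 of the 35 members. At least 2-fold lower were 5 of 60 and at least 2-fold higher 2, compared with 6.12% and 6.56% of all genes. The low position was therefore shared with the potassium channels and is not particular to the sodium, calcium and HCN genes.

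Markers of retinal cell types moved in the same libraries, and their part in the differences of the channel genes was not tested. All list values are as deposited. The 7 rod markers had a median log2 ratio of 0.07, with 2 of 7 lower as deposited, and summed to 15561 FPKM in CTRL and 18970.2 FPKM in IR12. The rod markers ranged from -0.45 for Nrl to 0.92 for Sag, and the -0.21 of Cacna1f lay within that range. All 7 cone markers were lower as deposited, with a median of -0.72, and their sum went from 426 FPKM to 284 FPKM, led by Gnat2 with 179 FPKM in CTRL and 138 FPKM in IR12. Of the 7 bipolar cell markers 6 were lower, with a median of -0.38 and a sum of 719 FPKM in CTRL and 589 FPKM in IR12, led by Trpm1 in CTRL (189 FPKM) and by Gng13 in IR12 (177 FPKM). The 7 amacrine cell markers were all lower, with a median of -0.79 and a sum of 246 FPKM in CTRL and 158 FPKM in IR12, led by Gad1 with 107 FPKM and 82.7 FPKM. Amacrine and cone lists thus lay lower than the channel members, and the rod list higher. Of the 4 horizontal cell markers 2 passed the minimum, and the list summed to 77.0 FPKM and 45.2 FPKM, led by Calb1 with 74.2 FPKM in CTRL and 43.2 FPKM in IR12. Of 10 retinal ganglion cell markers 9 passed it and 7 of these were lower, with a median of -0.16 and sums of 360.4 FPKM and 295 FPKM, led by Nefl with 132 FPKM in CTRL and 88.8 FPKM in IR12. Its markers ranged from -1.10 for Pou4f2, the 1 at least 2-fold lower, to 0.34 for Rbpms, and 4 of the 9 were among the lowest 25% of genes.

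Of the glial and non-neuronal lists, those of Müller glia, leukocytes and lens had medians furthest from 0, and those of the others were nearer to 0 than that of the amacrine list. All 6 Müller glia markers were at least 2-fold lower as deposited, with a median of -2.33 and sums of 1441 FPKM and 326 FPKM, led by Glul with 754 FPKM in CTRL and 126 FPKM in IR12. One of them, Kcnj10, is also counted among the potassium channels. Of 6 astrocyte and oligodendrocyte markers 3 passed the minimum, and their sum of 15.1 FPKM in CTRL and 33.8 FPKM in IR12 was led in IR12 by Gfap with 21.9 FPKM (2.95 FPKM in CTRL), while Pax2 was listed at 0 in CTRL. None of the 7 leukocyte markers was lower, with a median of 1.99 and sums of 15.1 FPKM and 127 FPKM, led by Lyz2 with 9.73 FPKM in CTRL and 76.9 FPKM in IR12, and S100a8 was listed at 0 in CTRL. All 5 lens markers were at least 2-fold lower, with a median of -2.73 and sums of 2953 FPKM and 352 FPKM, led by Cryba1 with 1614 FPKM in CTRL and 196 FPKM in IR12. No channel subfamily had a median as far from 0 as the Müller glia, leukocyte and lens lists.

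Of 5 markers of smooth muscle and pericytes 4 were lower, with a median of -0.35 and sums of 54.4 FPKM and 30.02 FPKM, led by Rgs5 with 38.6 FPKM in CTRL and 17.6 FPKM in IR12. For endothelium 3 of 4 markers were matched, with a median of -0.57 and sums of 111 FPKM and 70.1 FPKM, led by Kdr with 107.6 FPKM and 66.8 FPKM. Of these 3, 2 were lower as deposited, while Cdh5 was higher with 0.883 FPKM in CTRL and 1.63 FPKM in IR12. The 6 pigment epithelium markers had a median of 0.16 and sums of 93.6 FPKM and 121 FPKM, led by Ttr with 61.8 FPKM in CTRL and 87.4 FPKM in IR12. Of these 6, 4 were higher and 2 lower as deposited, with Rpe65 at least 2-fold lower (11.1 FPKM in CTRL and 4.88 FPKM in IR12). Of 7 skeletal muscle markers 6 were matched and 1 passed the minimum, with sums of 2.78 FPKM and 3.0 FPKM, led by Mylpf with 1.11 FPKM in CTRL and 1.29 FPKM in IR12. Tnnt3 was listed at 0 in CTRL and Ckm in IR12. The muscle channel genes Scn4a, Cacna1s and Cacng1 were likewise low.

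**Figure D5:**
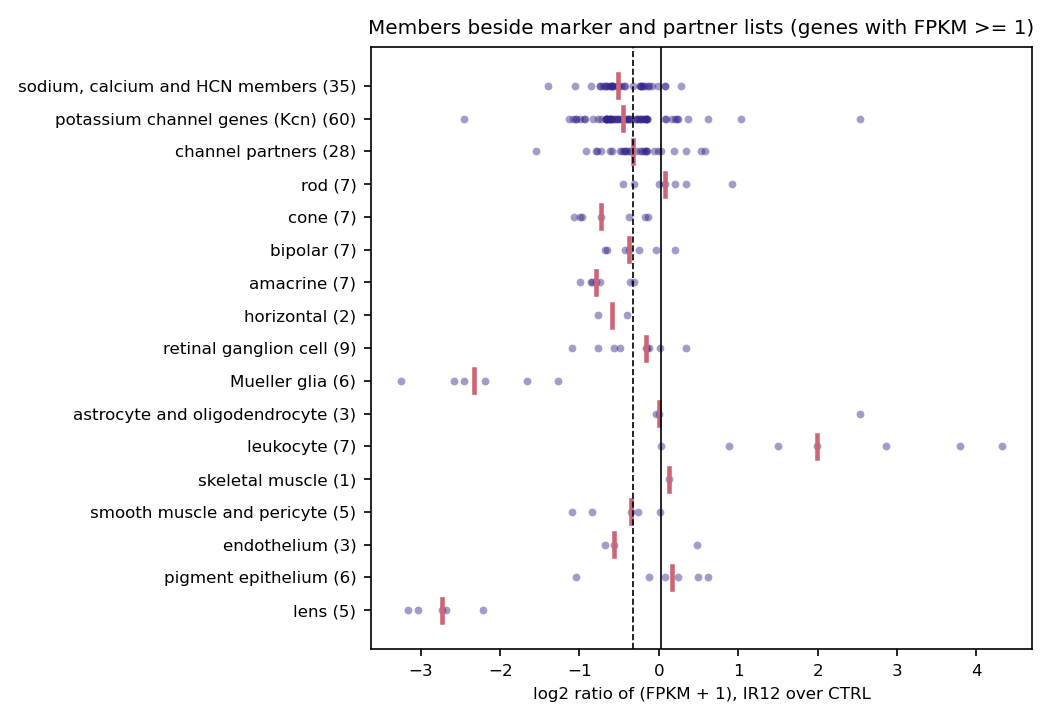
Log2 ratio of (FPKM + 1), IR12 over CTRL, as deposited, for the channel members, the potassium channel genes, the channel partners and the marker lists of retinal and other cell types (1 point per gene with FPKM of at least 1, number of genes in brackets, red bars are medians). The members have a median of -0.52 between those of amacrine (-0.79) and rod markers (0.07), while the medians of Müller glia and lens markers lie lower and that of leukocyte markers higher than the median of any channel subfamily; on the TPM scale the members have a median of 0.08.

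Long genes were lower as a class. Over the 2111 genes with a listed locus of at least 100 kb the median log2 ratio was -0.22 as deposited, with 71.2% lower in IR12. The 18 members of that length, Cacna1d and Scn1a among them, had a median of -0.58, with 17 of 18 lower. Members with loci of 10 to 30 kb, 6 in number, had a median of -0.38, while the 3824 genes of that length had 0.13. Members thus lay under genes of like locus length in both classes. By mean FPKM, the 7 members at 20 or above had a median of -0.24, compared with 0.05 over 5228 genes, and the 18 members between 5 and 20 had -0.55, compared with 0.06. The most abundant members, such as Cacna1f and Cacna2d4, thus lay nearer to other genes than those of middle level did. The part of locus length and level in the differences was not tested.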

How the data were processed

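The authors deposited 1 table of FPKM per gene with 1 column per library, named CTRL and IR12 as in the labels. The submitters' processing notes name STAR 2.5.2b, Cuffdiff 2.2.0 and rn6, with no role given, and the methods say that only the first 100 bases of each read were used. The labels name a stranded total RNA kit, as does the supplement of the paper, and the series text names a stranded mRNA kit, each with ribosomal RNA removal. Whether counting used strand is not given in the sources used here. Scaling beyond the name FPKM is not given either, so 2 rescaled versions were computed. Small non-coding RNAs (4174 genes) were recognised by symbol.

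Log2 ratios used a pseudocount of 1 and a minimum FPKM of 1 in either library, and counts and medians were set beside those of all genes. Every member was to be named, but results of some withheld genes are not reported here. Members and lists were chosen with earlier results of these data known. Alternatives were a pseudocount of 0.1, a minimum FPKM of 5 or none, centring and rescaling. Reads per kb came from the lowest FPKM values of 22 olfactory receptor genes in CTRL and, within 1%, of 61 of 87 in IR12. Listed loci can join overlapping genes. Of 44 members, 30 are alone in theirs, 14 share it and 4 share it with a gene at FPKM 1 or above. Promoter windows are from RefSeq on GRCr8, where 28 of 44 members were matched by symbol. Procedures were tested on simulated data. Tools were Python 3.11.15 with pandas 2.3.3 and numpy 2.4.6, intervals came from scipy 1.17.1, and figures from matplotlib 3.10.9.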

Additional observations from a re-analysis of the deposited data

How the results depend on the processing

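No paired analysis was possible because each condition has 1 library, and for the same reason no library could be left out. Of 66 alternative values of the counts and medians, 57 kept their direction and moved by less than 1.5-fold, 6 reversed and 3 moved by more. Centring and the factor without small RNAs shift values little by construction, so this tally is no test of the results. The reversals were all on the TPM scale. There the medians of the alpha1 and gamma subunits, both -0.03, still count as kept. Bringing both libraries to the same sum (TPM scale) changed the most. By its construction it multiplies the FPKM of IR12 by a common factor, 0.65 in log2 units. On it 0 members were at least 2-fold lower in place of 2, and 15 were lower in place of 32. Of all genes, 15.7% were lower on it in place of 48.2%. The median of the members became 0.083, that of sodium channel alpha subunits 0.083, of sodium channel beta subunits 0.32, of alpha2delta subunits 0.21, of calcium channel beta subunits 0.25 and of HCN channels 0.030. Over all genes 473 were then at least 2-fold lower and 3051 higher, in place of 832 and 892. Of the 35 members, 19 moved by over 1.5-fold on that scale and 0 on the others. Since the factor is common to all, which members these are follows from their level and the pseudocount of 1. Which scale is nearer to the tissue was not tested. Without small RNAs the factor was -0.10 on the log2 scale. With this factor 34 members and 55.4% of all genes were lower, and Cacnb1 was the 1 member higher. With a minimum FPKM of 5, which Cacng2 does not reach, 1 of 27 members was at least 2-fold lower in place of 2. With no minimum, the median of all 44 members was -0.28 and that of the gamma subunits -0.10, since members near 0 enter with ratios near 0. Depth limits the 9 members under FPKM 1. Counting intervals for a transcript of 1 kb included 0 for 11 members as deposited and for 20 on the TPM scale.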

Other observations

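At the lowest level, values stood on single reads per kb. Cacng6 had 0.267 reads per kb in CTRL and 0.534 in IR12, and Scn10a, listed at 0 in CTRL, had 0.159 in IR12. Cacng8 had 2.82 reads per kb in CTRL and 4.70 in IR12, although its FPKM was nearly the same in both (0.183 and 0.179), because 1 read was worth less FPKM in IR12.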
